A study of Mus musculus with 6 samples.

Results

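The plasminogen activation system was examined through 9 genes chosen by symbol: the zymogen Plg, the activators Plau and Plat, the cell-surface proteins Plaur, Anxa2 and S100a10, and the inhibitors Serpine2, Serpinb2 and Serpinf2. Of the 9, 8 were measured among the 21718 genes of the count table, and Plg was not analysed here. A total of 6 members passed the filter on low counts (Plau, Plat, Plaur, Anxa2, S100a10 and Serpine2), while Serpinb2 and Serpinf2 fell below it. The samples were 6 bulk RNA libraries from mouse prostate tumours, and all recipients shared the same genotype. At 6 weeks of age all recipients had a lethal dose of 900 rad and were given donor marrow. They were castrated at the age of 8 weeks, and the tumours, which the labels call castration-resistant, were taken 16 weeks after that. The marrow donors were F10fl/fl without Cre in the F10-intact group (samples 1, 3 and 4) or F10fl/fl; LysM-Cre+ in the F10-deleted group (samples 1, 3 and 4). F10 encodes coagulation factor X. The LysM-Cre driver acts in myeloid cells, so only cells grown from the donor marrow were targeted, and the labels do not describe a deletion in the recipients' own cells. The labels do not state that the samples came from different animals, and the p-values therefore measure the spread between these samples only.

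Plasmin, the active form of plasminogen, cuts fibrin and other matrix proteins. It is made on cell surfaces when urokinase (the product of Plau), held by its receptor (Plaur), or tissue plasminogen activator (Plat) cuts plasminogen. A complex of annexin A2 (Anxa2) and its light chain (S100a10) gathers plasminogen and tissue plasminogen activator on the membrane. Serpins, which trap proteases irreversibly, limit each step. Urokinase and its receptor are widely studied in tumour invasion, and coagulation and fibrinolysis act on the same fibrin clot.

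The sequences just upstream of Plaur and Anxa2 are shown because these are the members whose levels did not overlap between the groups (values below). They come from the RefSeq promoter table (build GRCm38.p6), in which 5 of the 9 symbols had an entry: Plaur, Anxa2, Serpine2, Serpinb2 and Serpinf2. Each is read 5′ to 3′ on the plus strand and ends before the gene's first annotated exon base. Capitals mark the letters TGACTCA, or their reverse complement, the motif bound by AP-1 transcription factors.
Plaur upstream (chr7:24462233-24462482, plus strand): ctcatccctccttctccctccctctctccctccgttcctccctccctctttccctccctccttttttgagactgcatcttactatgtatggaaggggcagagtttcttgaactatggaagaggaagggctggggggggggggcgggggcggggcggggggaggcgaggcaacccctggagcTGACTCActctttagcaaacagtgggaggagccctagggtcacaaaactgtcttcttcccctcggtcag
Anxa2 upstream (chr9:69453433-69453619, plus strand): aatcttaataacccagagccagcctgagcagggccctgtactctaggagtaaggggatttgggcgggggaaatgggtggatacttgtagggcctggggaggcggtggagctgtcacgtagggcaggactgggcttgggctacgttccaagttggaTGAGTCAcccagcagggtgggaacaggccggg
Both stretches held 1 match, which began 69 bases before the RefSeq start of Plaur and 95 bases before that of Anxa2. Across 32851 mouse promoter windows of 250 bases upstream, 4.46% held this motif on either strand. The windows of Serpine2, Serpinb2 and Serpinf2 did not hold these letters. In the full windows, of which the printed Anxa2 stretch is only the first 187 bases, the GC box GGGCGG, bound by Sp family factors, was found 3 times each for Plaur and Anxa2 and 6 times for Serpine2 on either strand, counting matches that overlap by a base. It was present in 32.7% of windows. The letters TATAAA, searched on both strands, occurred in the windows of Anxa2 and Serpinb2 and in 12.4% of all windows. The motifs were chosen after the sequences had been read, and a match describes letters and not a bound factor.

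Library totals ranged from 9237308 to 11821588 counts. F10, the targeted gene, had 2, 6 and 17 counts in F10-intact tumours 1, 3 and 4 and 7, 4 and 9 counts in F10-deleted tumours 1, 3 and 4, which is too few to check the labels. Lyz2, the myeloid gene that carries the Cre, stood at 187 ± 112 CPM (counts scaled to a common library size) with F10-intact marrow and at 246.5 ± 32.6 CPM with F10-deleted marrow (SD, n = 3 each). F10-intact sample 4 lay apart from the other samples on the first principal component, which held 47.6% of the variance, so fold changes are also given without it. CPM values here use edgeR's TMM scaling. A fold change sets the F10-deleted group over the F10-intact group throughout, and was called where the adjusted p was under 0.05.

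The members tested had log2 fold changes above 0 in all 6 cases, where 47.3% of all genes did, led by Anxa2, Plaur and Plau at 1.57, 1.54 and 1.52 times the F10-intact level. Of the 6, 0 passed the edgeR quasi-likelihood test adjusted over all genes. The same threshold called 7 of 15963 genes (0.0439%). DESeq2 called 0 of the 6, and 3.02% of all genes (2.2% with higher values). Limma-voom called 0 of the 6 and 0.0125% of all genes, and edgeR with the replicate number as a block called 0 of the 6 and 0.0125%. At an unadjusted p under 0.05, 3 of the 6 (Anxa2, Plaur and Plau) were past the threshold, where 10.9% of all genes were, 6.15% with higher values. That count changed when single samples were left out. Dropping F10-deleted sample 4 left 0, while dropping F10-deleted sample 3, F10-intact sample 1 or F10-intact sample 3 left 2. Without F10-deleted sample 4 the log2 fold changes of Anxa2, Plaur and Plau were 0.56, 0.61 and 0.62. Their standard errors were then larger than with all samples. The groups did not overlap for 2 of the 6, Anxa2 and Plaur, both higher in the F10-deleted group, against 8.99% of all genes with higher and 7.67% with lower values (16.7% in all). Over the 6 members the median log2 fold change was 0.50, beside -0.02 over all genes tested. The members were chosen with earlier results of these data known, so these shares describe them and are no independent comparison. In bulk tissue a change in the number of cells of a type and a change in RNA per cell cannot be told apart.

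**Figure D1:**
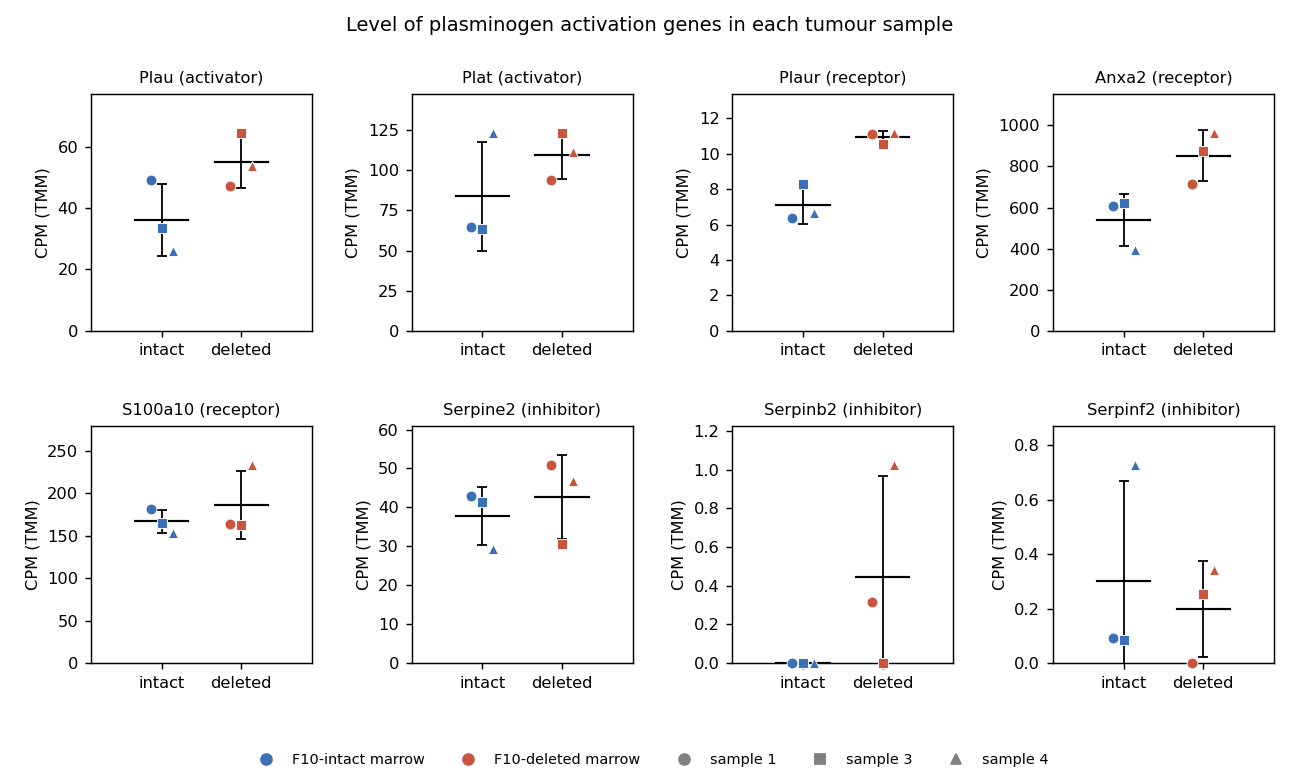
Level of each measured member in CPM (vertical axes, linear, starting at 0) in the 6 tumour samples, by marrow group. Points are samples, with the shape giving the sample number, and bars are the mean with SD of 3 samples. Plaur and Anxa2 have all F10-deleted points above all F10-intact points, while the groups overlap in the other panels.

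Plau, the urokinase gene (ENSMUSG00000021822, chromosome 14, 20836660 to 20843385, plus strand, GRCm38), had 49.0, 33.5 and 25.9 CPM in F10-intact tumours 1, 3 and 4. It had 47.1, 64.4 and 53.6 CPM in the F10-deleted tumours. F10-intact sample 1 lay just above the lowest F10-deleted sample, so the groups overlapped by that sample. The means were 36.1 ± 11.8 and 55.1 ± 8.70 CPM (SD, n = 3 each), and the log2 fold change was 0.61 (95% interval 0.04 to 1.18, edgeR adjusted p = 0.426). F10-intact tumours 1 and 4 differed by more than the group means did. The log2 fold change was 0.42 without F10-intact sample 4, and leaving out F10-intact sample 1 instead gave 0.92.

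Plat, the tissue plasminogen activator gene (ENSMUSG00000031538, chromosome 8, 22757727 to 22782844, plus strand), had 64.8, 63.5 and 123 CPM in the F10-intact tumours and 93.8, 123 and 112 CPM in the F10-deleted tumours. The F10-intact group was split, with sample 4 level with F10-deleted sample 3, the highest of its group, and samples 1 and 3 below every F10-deleted sample. The log2 fold change was 0.39 (95% interval -0.25 to 1.02, edgeR adjusted p = 0.670). Without F10-intact sample 4 it was 0.77 with an edgeR adjusted p of 0.15, the lowest that any alternative gave for this gene, and the highest was 1. In that sample the activators stood at opposite ends: its Plau level was the lowest of the 6 samples, and its Plat level was at the top beside F10-deleted sample 3.

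Plaur, the urokinase receptor (ENSMUSG00000046223, chromosome 7, 24462484 to 24475968, plus strand), is anchored in the cell membrane by a lipid and holds urokinase at the cell surface. It was read 69, 97 and 64 times in the F10-intact tumours and 106, 125 and 131 times in the F10-deleted tumours. These counts gave 6.37, 8.31 and 6.64 CPM against 11.1, 10.6 and 11.2 CPM. Every F10-deleted tumour was above every F10-intact sample, and the F10-deleted tumours lay close together. The means were 7.11 ± 1.06 and 11 ± 0.334 CPM (SD, n = 3 each). The log2 fold change was 0.62 (95% interval 0.12 to 1.13, edgeR adjusted p = 0.347), and an exact two-sided permutation test gave p = 0.1, the smallest that 3 against 3 samples allow. With 1 sample left out in turn, the log2 fold change ranged from 0.57 to 0.75.

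Anxa2, the heavy chain of the surface complex (ENSMUSG00000032231, chromosome 9, 69453620 to 69491795, plus strand), had 605, 622 and 396 CPM in the F10-intact tumours. It had 717, 877 and 962 CPM in the F10-deleted tumours. All F10-deleted tumours were above all F10-intact tumours, and F10-intact sample 4 was the lowest of the 6. The means were 541 ± 126 and 852 ± 125 CPM (SD, n = 3 each). The log2 fold change was 0.66 (95% interval 0.15 to 1.16, edgeR adjusted p = 0.324, exact two-sided permutation p = 0.1). The adjusted p ranged from 0.0862 with DESeq2 to 0.738 over the alternatives, and the log2 fold change without F10-intact sample 4 was 0.47. An antisense gene, Gm16144, overlaps an exon of Anxa2, and the strand setting of the counting is not given in the sources used here.

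S100a10, the light chain whose tail binds plasminogen (ENSMUSG00000041959, chromosome 3, 93555080 to 93564643, plus strand), had 182, 165 and 154 CPM in the F10-intact tumours and 163, 163 and 233 CPM in the F10-deleted tumours. Only F10-deleted sample 4 lay above the F10-intact range. The log2 fold change was 0.16 (95% interval -0.24 to 0.56, edgeR adjusted p = 0.80), and it was -0.03 without F10-deleted sample 4. The interval leaves room for a fold change of up to 1.48.

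Serpine2, the gene of protease nexin, which traps thrombin, urokinase and plasmin (ENSMUSG00000026249, chromosome 1, 79794197 to 79861180, minus strand), had 42.8, 41.3 and 29.3 CPM in the F10-intact tumours. It had 50.8, 30.5 and 46.7 CPM in the F10-deleted tumours. The groups overlapped, with F10-intact sample 4 and F10-deleted sample 3 low alike. The log2 fold change was 0.17 (95% interval -0.37 to 0.72, edgeR adjusted p = 0.851), and 0.02 without F10-intact sample 4.

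Serpinb2, an inhibitor of urokinase and tissue plasminogen activator known from macrophages and squamous epithelium (ENSMUSG00000062345, chromosome 1, 107511423 to 107535478, plus strand), had 0 counts in all F10-intact tumours. In F10-deleted tumours 1, 3 and 4 it had 3, 0 and 12 counts. The reads thus came from 2 of the 3 F10-deleted tumours, mostly from sample 4. Scaled for library size, the 15 counts of the F10-deleted group were 4.86 times a ceiling of 3 counts over the F10-intact group. That ceiling was taken as the most that a count of 0 allows. The ratio leaves out the counting error of the 15 and the spread between tumours, so it is not a lower bound. Tested without a filter, the gene had an edgeR adjusted p of 0.484. Serpinb10, a neighbouring gene on the same strand, shares exon positions with Serpinb2, so reads there could be split between them.

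Serpinf2, the gene of antiplasmin, the main circulating inhibitor of plasmin and a product of the liver (ENSMUSG00000038224, chromosome 11, 75431732 to 75439591, minus strand), had 1, 1 and 7 reads in the F10-intact tumours and 0, 3 and 4 reads in the F10-deleted tumours. The levels were near the detection limit in both groups, with the highest count in F10-intact sample 4. The ratio of the group sums, 7 against 9 counts, was 0.756 (exact 95% interval 0.239 to 2.28, counting error only). A difference was not detectable at this depth.

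**Figure D2:**
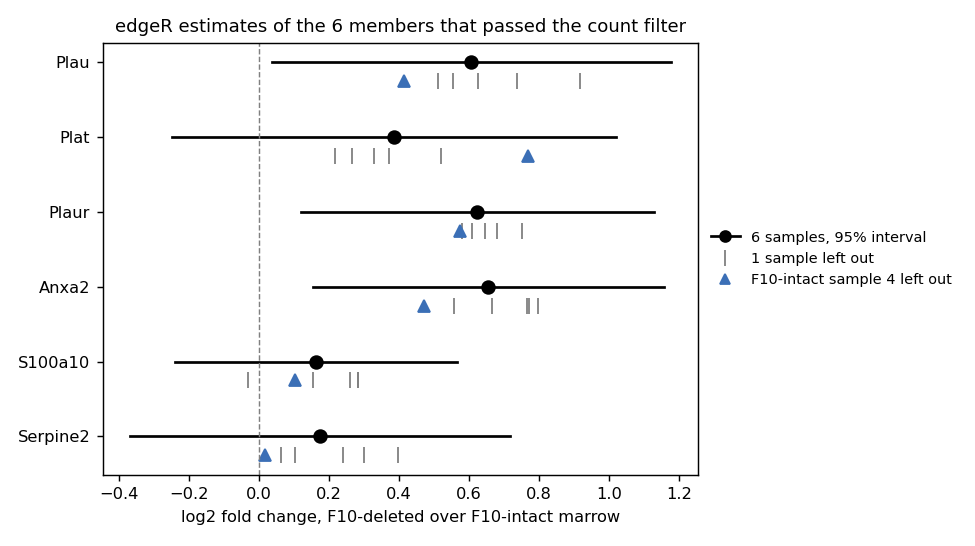
The edgeR log2 fold change, F10-deleted over F10-intact (horizontal axis), of the 6 members that passed the filter, with its 95% interval from 3 samples per group. Grey ticks are fits with 1 sample left out and blue triangles the fit without F10-intact sample 4, which takes Plat from 0.39 to 0.77 and Serpine2 from 0.17 to 0.02.

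Levels of different members were compared per kilobase of summed exon length. Anxa2 was the most abundant at 187 ± 54.6 CPM per kilobase and S100a10 followed at 146 ± 24.0 (mean and SD over the 6 samples), with overlapping ranges. The activators came next, Plau at 19.3 ± 5.87 and Plat at 15.5 ± 4.38 CPM per kilobase, also with overlapping ranges. Serpine2 at 4.86 ± 1.04 and Plaur at 3.45 ± 0.850 CPM per kilobase were lowest among the members that passed the filter, and their ranges overlapped too. Between these pairs the ranges were separate: the lowest Anxa2 value, 106, lay above the highest Plau value, 27.2. The lowest Plat value, 10.2, lay above the highest Serpine2 value, 6.13. The order of the activators depended on the length used. With the length of the principal annotated transcript, chosen after the data were seen, Plat stood at 38.3 ± 10.8 CPM per kilobase, Plau at 19.5 ± 5.93, Serpine2 at 18.2 ± 3.92 and Plaur at 6.00 ± 1.48, so that Plau and Serpine2 overlapped.

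Ratios within a sample set partners side by side, on a log2 scale per kilobase of principal transcript. The heavy to light chain ratio, Anxa2 over S100a10, was 0.66, 0.83 and 0.29 in F10-intact tumours 1, 3 and 4. It was 1.05, 1.35 and 0.97 in the F10-deleted tumours. The groups did not overlap, and the means differed by 0.53. Anxa2 alone did not overlap either, so this ratio is not independent of that result. No share over other gene pairs was computed. The ratio of urokinase to its receptor, Plau over Plaur, was 2.31, 1.37 and 1.33 in the F10-intact tumours and 1.45, 1.97 and 1.63 in the F10-deleted tumours. The group means of that ratio were close, at 1.67 and 1.68, with F10-intact sample 1 above all others. The activator ratio, Plau over Plat, was -0.29, -0.81 and -2.14 in the F10-intact tumours and -0.88, -0.83 and -0.95 in the F10-deleted tumours. Its spread was 0.95 among F10-intact and 0.06 among F10-deleted tumours (SD, n = 3 each), with F10-intact sample 4 far below the rest. These ratios are a description and were not tested.

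**Figure D3:**
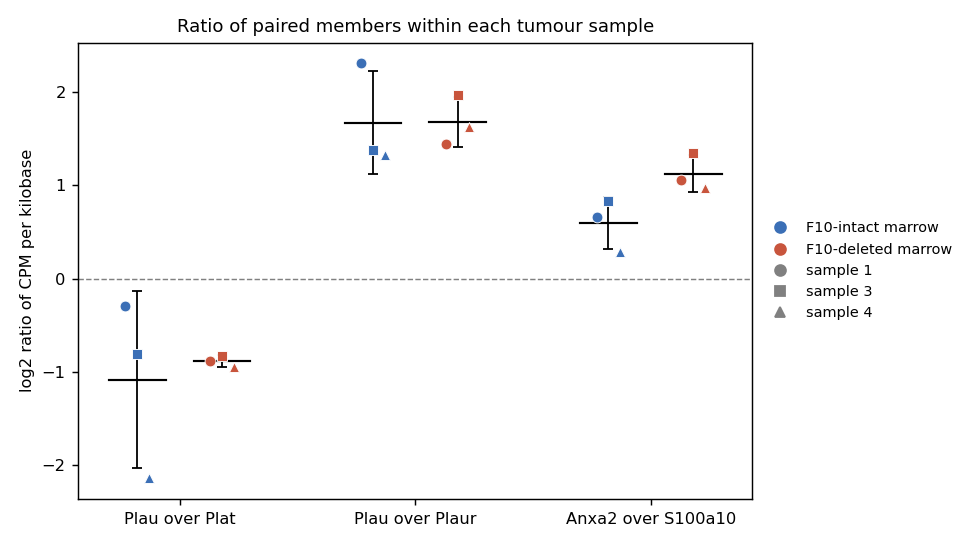
Log2 ratio of CPM per kilobase of principal transcript (vertical axis) between paired members within each of the 6 samples. Points are samples, with the shape giving the sample number, and bars are the mean with SD of 3 samples. Anxa2 over S100a10 is higher in all F10-deleted tumours, and F10-intact sample 4 has the lowest Plau over Plat ratio, at -2.14.

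Summed levels of basal epithelial, skeletal muscle and adipocyte markers were higher in every F10-deleted tumour, as Anxa2 and Plaur were. The liver sum was higher only by a narrow margin. The luminal sum was lower in each F10-deleted tumour, and the sums of the 6 other marker lists overlapped between the groups. All 7 basal epithelial markers had log2 fold changes above 0, with a summed level of 946 to 2069 CPM in the F10-intact tumours and 2377 to 3856 CPM in the F10-deleted tumours. Of 9 endothelial and 9 fibroblast markers, 7 each had log2 fold changes above 0, and their summed levels overlapped, at 44.6 to 102 against 74.6 to 107 CPM and 1289 to 1498 against 1482 to 1552 CPM. The 9 skeletal muscle markers, all above 0 and with 1 (Mybpc2) called by edgeR, summed to 10.2 to 96.5 CPM in the F10-intact and 694 to 1707 CPM in the F10-deleted tumours. The 8 adipocyte markers, of which 7 were tested, all above 0 and 1 of them (Fabp4) called by edgeR, summed to 12.1 to 44.6 and 127 to 263 CPM. The 6 urothelial markers, all above 0, summed to 150.4 to 426 and 329 to 1585 CPM, with F10-deleted sample 3 high. Each marker named in these lists and measured had at least 1 count. Of 8 luminal markers 1 was above 0, with 7954 to 8902 against 7139 to 7633 CPM in sum. Macrophage and monocyte markers, with 3 of 10 above 0, summed to 437 to 492 and 384 to 478 CPM. Neutrophil markers, with 1 of 6 above 0 and a median log2 fold change of -0.68, summed to 567 to 830 and 575 to 948 CPM. Of the 6, 0 were called by edgeR. Csf3r and S100a8 were lower at an unadjusted edgeR p under 0.05, where 4.74% of all genes were, and the groups overlapped for both. Smooth muscle markers, with 4 of 7 above 0, summed to 929 to 3373 and 1319 to 2551 CPM. Among markers of the liver, where Serpinf2 is made, Alb was between 0.092 and 0.508 CPM in the 6 samples. The 4 measured ones summed to 1.14 to 18.8 and 19.2 to 22.3 CPM. The 2 tested ones, Cyp2e1 and Ttr, overlapped between the groups, and Ttr was high in F10-deleted sample 3 only, at 12.7 CPM. The part of these cell types in the members' levels was not tested.

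The wider system was followed in 7 lists of 97 distinct genes, of which 74 were tested, with Serpinb6a in both the clade B serpins and the other fibrinolysis genes. edgeR called 0 of the 74 at the adjusted threshold and limma-voom called 0, where they called 0.0439% and 0.0125% of all genes. DESeq2 called 5 (Fn1, Ltbp1, Anxa8, Ly6d and Ly6k), all higher, where it called 3.02% of all genes (2.2% with higher values). At an unadjusted p under 0.05, 17 had higher and 0 had lower values, where 6.15% and 4.74% of all genes did. Dropping F10-deleted sample 4 left 8 higher, and dropping F10-intact sample 4 left 10 higher beside 3 lower. The median log2 fold change of the 74 was 0.24, beside -0.02 over all genes tested, with 0.13 when F10-intact sample 4 was dropped and 0.41 when F10-intact sample 1 was. The lists were also chosen with earlier results of these data known, so their shares and medians are a description too. Genes were named as those with the smallest unadjusted p in each list.

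Substrates of plasmin and urokinase had log2 fold changes above 0 in 17 of 19 tested genes, at a median of 0.42 on the log2 scale, and 0 past the edgeR threshold in either direction. The exception among the edgeR alternatives at an adjusted p under 0.05 was Fn1. It was called with no filter (edgeR adjusted p = 0.0458) and without F10-intact sample 1 (edgeR adjusted p = 0.0431). At the looser threshold of 0.1 it passed in the main test. Fn1, the gene of the matrix protein fibronectin, had 41.4, 42.0 and 40.6 CPM in the F10-intact and 78.3, 91.4 and 83.4 CPM in the F10-deleted tumours (edgeR adjusted p = 0.0758). Ltbp1, which holds latent TGF-beta in the matrix and is released from it by plasmin, had 74.7, 66.9 and 53.2 against 98.2, 119 and 109 CPM (edgeR adjusted p = 0.146). Thbs1, a matrix glycoprotein, had 193, 209 and 149 against 235, 288 and 294 CPM (edgeR adjusted p = 0.283). In each of these genes, picked for the smallest p, the groups did not overlap. Over the list this held for 5 of 19 genes, all higher, against 8.99% of all genes with higher values. Of the 9 fibroblast markers, DESeq2 called Col1a1, Col1a2, Col3a1 and Postn as higher too, against 2.2% of all genes (edgeR called 0). The log2 fold change of Col1a1 was 1.21, and the part of these markers in the substrates was not tested. Without F10-intact sample 4 the median of the list was 0.24.

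Partners of the urokinase receptor and its clearance receptors had 7 of 12 tested genes above 0, their median being 0.18 and 0 past the edgeR threshold. That median was -0.04 without F10-intact sample 4 and 0.44 when F10-intact sample 1 was dropped. The integrin chains Itga5, Itgav and Itga3 had the smallest unadjusted p, with log2 fold changes of 0.50, 0.36 and 0.43 (edgeR adjusted p from 0.373 to 0.440). The groups did not overlap for Itga5 and Itgav and overlapped for Itga3. Over the list 2 of 12 genes did not overlap with higher and 1 with lower values, where 8.99% and 7.67% of all genes did. Vtn, the gene of vitronectin, an adhesive ligand of the receptor, and the integrin chain Itgb3 had fold changes of larger size and opposite direction, at 1.08 and -0.78 on the log2 scale (edgeR adjusted p = 0.490 and 0.516), and are named after their values were seen. Itgb3 had 7.75, 4.03 and 3.53 CPM in F10-intact tumours 1, 3 and 4 and 2.63, 2.88 and 3.41 CPM in the F10-deleted tumours, and was the only gene of the 74 with lower values that did not overlap. Other plasminogen receptors had 6 of 9 above 0 and a median of 0.02. Of the 9, 0 were past the threshold even at an unadjusted p under 0.05, where 10.9% of all genes were. Itgb1, Hmgb1 and Itgb2 had the smallest p-values there, at log2 fold changes of 0.24, 0.15 and -0.16.

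Clade B serpins other than Serpinb2 had 5 of 7 tested genes above 0 and a median of 0.40, with 0 past the adjusted edgeR threshold. At an unadjusted edgeR p under 0.05, 4 had higher values, where 6.15% of all genes did. Serpinb5, the epithelial gene of maspin, had 43.0, 58.1 and 49.6 CPM in the F10-intact tumours and 60.2, 79.2 and 86.6 CPM in the F10-deleted tumours (edgeR adjusted p = 0.301). Serpinb8 and Serpinb9, an inhibitor of granzyme B, had log2 fold changes of 0.49 and 0.35, and their groups did not overlap. Over the list 4 of 7 genes did not overlap, all higher, against 8.99% of all genes with higher values. Other fibrinolysis genes had 4 of 7 above 0 and a median of 0.01, which was 0.24 without F10-intact sample 4. Among them, Serpini1, the gene of neuroserpin, which inhibits tissue plasminogen activator, had 3.05, 4.03 and 2.28 against 4.73, 5.92 and 5.71 CPM (edgeR adjusted p = 0.409). Serpinb6a and Klkb1, the gene of plasma kallikrein, stood at log2 fold changes of 0.40 and -0.68. Fga, Fgb, Fgg, Cpb2 and Hrg of that list were not analysed here.

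The other annexins set Anxa2 in its family. Of 10 tested, 5 were above 0, the median was 0.02 (log2), and 0 past the adjusted edgeR threshold. Anxa8, an annexin of stratified epithelium, had 41.4, 48.3 and 18.2 CPM in the F10-intact tumours and 82.4, 126 and 111 CPM in the F10-deleted tumours (log2 fold change 1.56 ± 0.35 SE, edgeR adjusted p = 0.174). Anxa3 and Anxa1 had log2 fold changes of 0.51 and 0.92, with groups that did not overlap. Over these annexins 3 of 10 did not overlap, all higher, against 8.99% of all genes with higher values. The Ly6/uPAR family, which shares the receptor's protein fold, had 8 of 11 above 0 and a median of 0.50. This median was 0.17 without F10-deleted sample 4 and 0.73 when F10-deleted sample 1 was dropped. Ly6d, a surface protein of epithelial and lymphoid cells, had 593, 466 and 625 against 999, 1274 and 867 CPM (edgeR adjusted p = 0.161). Ly6k and Gpihbp1, an endothelial carrier of lipoprotein lipase, had log2 fold changes of 1.12 and 1.11. No gene of the family passed the edgeR threshold. At an unadjusted edgeR p under 0.05, 3 of the 11 had higher values, where 6.15% of all genes did.

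**Figure D4:**
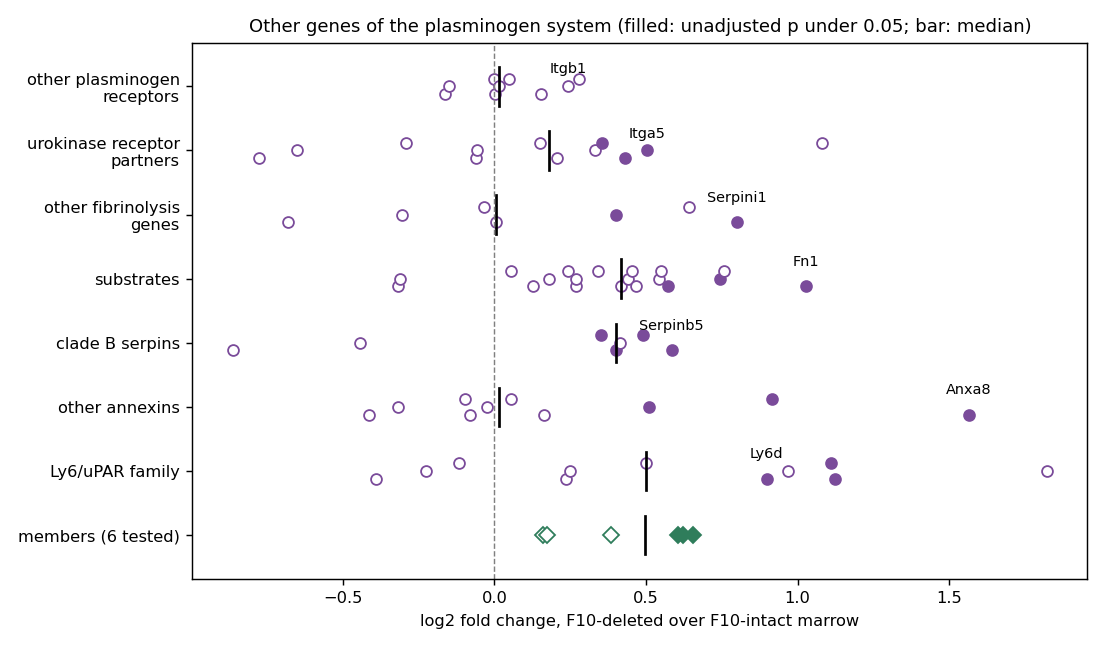
The edgeR log2 fold change, F10-deleted over F10-intact (horizontal axis), of the tested genes of 7 lists (circles) and of the 6 members that passed the filter (diamonds). Filled symbols have an unadjusted p under 0.05, black bars are medians, and the gene with the smallest p in each list is named. The bars lie from 0.01 for other fibrinolysis genes to 0.50 for the Ly6/uPAR family.

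Genes whose levels followed a member most closely were taken among 12195 genes with a mean of at least 5 CPM, by the root mean square distance of centred log2(CPM + 0.5) over the 6 samples. For Plau they were Mgat4b, Ccnjl and Col15a1, at distances of 0.06, 0.08 and 0.09 log2 units. Mgat4b, a Golgi glycosyltransferase gene, had 41.5, 28.4 and 20.3 CPM in F10-intact tumours 1, 3 and 4 and 39.5, 49.99 and 40.9 CPM in the F10-deleted tumours, the same order as Plau in the F10-intact group. For Plaur they were Got1, Mthfd1l and Lrrc42, at 0.07, 0.07 and 0.08 log2 units. Got1, the cytosolic aspartate aminotransferase gene, had 20.1, 24.6 and 20.6 against 35.6, 35.9 and 34.2 CPM. For Anxa2 they were Prr16, Tnfaip8 and Atad5, at 0.06, 0.06 and 0.08 log2 units. Tnfaip8 had 46.1, 44.9 and 29.0 against 56.2, 68.3 and 80.3 CPM, with F10-intact sample 4 lowest as for Anxa2. All these genes were picked for likeness over the same 6 samples, so a shared order follows from the choice.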

How the data were processed

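Per the labels' protocols, poly-A RNA of the tumours went into stranded libraries, sequenced from one end over 120 bases. The authors deposited raw read counts per Ensembl gene. STAR 2.7.10a, DESeq2 and GRCm38 are named in the submitters' processing notes; the counting program is, like its strand setting, not given in the sources used here. GENCODE M21 on GRCm38 gave symbols for 21605 of 21718 identifiers, coordinates and exon lengths.

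The main test was edgeR 4.0.16 (R 4.3.3), robust quasi-likelihood, with TMM factors, filterByExpr at a minimum count of 10 and Benjamini-Hochberg adjustment over 15963 genes. Members below the filter were taken from an unfiltered fit. Single genes were compared with an exact permutation test on log2(CPM + 0.5). Intervals are at 95%. Alternatives were RLE and upper quartile scaling, DESeq2 1.42.0, limma-voom (limma 3.58.1), a replicate block, 2 other filters, a fit without robust shrinkage, leaving out each sample, and a looser threshold of 0.1. Scripts were tested on simulated data.

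Named were all members, F10, Lyz2, up to 3 genes with the smallest p per list of the pathway, and for Plau, Plaur and the member with the smallest p the 3 genes nearest in pattern. The genotype of the recipients is not reported here. The members and lists were chosen with earlier results of these data known.

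Samples of both groups carry the numbers 1, 3 and 4. The deviations of same-numbered samples from the mean of their group correlated across genes at 0.37, 0.14 and 0.19, each over 0.1. Values for samples with different numbers are not given here, so these correlations cannot show that a shared number marks a pair. The labels name no shared animal or day. The main test and the permutation test treated the samples as unpaired, and only the replicate block used the number. Within groups, pairs of libraries differed by far more than counting noise (chi-square over degrees of freedom at least 22.3).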

Additional observations from a re-analysis of the deposited data

How the results depend on the processing

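The count of members past the threshold was 0 under each alternative run. The count of genes past the threshold was 7, and it was 481 with DESeq2, 2 with limma-voom, 2 with at least 1 CPM in at least 3 samples, 3 with the non-robust fit and 85 at an adjusted p under 0.1. With the replicate block it was 2; the block changed no call among the members, whose lowest adjusted p was then 0.301. With 1 sample left out it ranged from 0 to 72 (72 without F10-intact sample 1, 18 without F10-deleted sample 3, 1 without F10-deleted sample 1, 5 without F10-intact sample 4, and 0 when F10-intact sample 3 or, separately, F10-deleted sample 4 was left out).

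Of 112 fold changes of members under alternatives, 109 kept their direction and 3 reversed, each on leaving out a sample. S100a10 ranged from -0.031 to 0.28, the low end without F10-deleted sample 4, and Serpinf2 from -1.03 to 1.13 with 1 sample left out (1.13 when F10-intact sample 4 was dropped, 0.07 when F10-deleted sample 1 was), with -0.45 from all samples. Of 98 list medians, 92 moved by less than the spread between samples and 6 by more. Of 98 counts of list genes past the threshold, all at an adjusted p under 0.05, 5 moved. With DESeq2 the substrates had 2, the annexins 1 and the Ly6/uPAR family 2. The substrates had 1 with no filter and 1 without F10-intact sample 1. With 1 sample left out the list medians ranged from -0.01 to 0.24 for other fibrinolysis genes, from 0.00 to 0.11 for other plasminogen receptors, from -0.03 to 0.10 for annexins, from 0.24 to 0.59 for substrates and from 0.31 to 0.51 for clade B serpins. The mean log2 ratio of Plau over Plat was 0.31 per kilobase of summed exons and -0.98 per kilobase of principal transcript. Depth limits Serpinb2 and Serpinf2, which had at most 12 counts in a sample.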
